A study of Mus musculus with 32 samples.

Results

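The major urinary protein genes Mup1, Mup2, Mup3, Mup7, Mup9, Mup12, Mup15, Mup17 and Mup20 were followed through whole-liver RNA of mice with 2 genotypes on 2 diets. These 9 genes were taken by symbol from a table of 55487 gene rows, 22 of which carry a Mup number. They were chosen by gene family with measured results of the same libraries in view: 7 of them differed between FAAH S268D and wild-type (WT) livers on the NASH diet, and Mup20 differed between the diets in FAAH S268D. Values in those contrasts are therefore description and carry no test.

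The 4 groups were FAAH S268D on NASH-AA, FAAH S268D on NASH, WT on NASH-AA and WT on NASH, with 8 libraries each. FAAH S268D names a serine-to-aspartate change in the enzyme FAAH, which breaks down anandamide and N-acyl taurines. Per the series text the mice were fed HFFC for 28 weeks, either plain (labelled NASH) or with ARA added (labelled NASH-AA). All groups received HFFC, and no chow group was analysed here. The labels used here give neither age nor sex and do not state that each library is another animal; p-values then measure the spread between these libraries, which may be technical.

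Major urinary proteins are small secreted lipocalins, barrel-shaped carriers of volatile ligands. Mouse hepatocytes make them in bulk, and they pass from blood through the kidney into urine, where they bind and slowly release pheromones. Their transcription in liver is known to be higher in males and to depend on pulsatile growth hormone, androgens, thyroid hormone and glucocorticoids. Mup20 encodes darcin, a male pheromone protein that is itself detected by females. Mup7, Mup1, Mup2, Mup9, Mup12, Mup15 and Mup17 belong to the central group of near-identical copies, whereas Mup3 and Mup20 lie at the edge of the cluster with more divergent sequences.

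All 22 numbered Mup genes lie on chromosome 4 between 59956804 and 62150863 (GRCm38, GENCODE annotation), with all 9 members on the minus strand. The nearest was 53.8 Mb from Faah, which lies on the same chromosome at 115967145 to 116017926. The coding sequences of the 7 central members were 98.5% to 99.6% identical over 21 pairs, with a median of 99.3%. Mup20 was 86.8% to 91.0% identical to the other 8 members, and Mup3 82.2% to 86.8%. A stretch of 60 coding bases that varied at 25 positions among the members, read across an exon junction, is shown because it illustrates how few bases separate reads of the central copies. Capitals mark bases that differ from Mup7, and each line reads 5′ to 3′ from the GENCODE transcript.
Mup7: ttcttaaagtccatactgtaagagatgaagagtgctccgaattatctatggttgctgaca
Mup17: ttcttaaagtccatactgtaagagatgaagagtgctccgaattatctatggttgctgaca
Mup9: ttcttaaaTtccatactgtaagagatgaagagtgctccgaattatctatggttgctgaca
Mup1: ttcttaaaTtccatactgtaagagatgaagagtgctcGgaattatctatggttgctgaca
Mup2: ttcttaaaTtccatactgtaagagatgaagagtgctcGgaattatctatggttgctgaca
Mup12: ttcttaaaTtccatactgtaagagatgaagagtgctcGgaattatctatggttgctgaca
Mup15: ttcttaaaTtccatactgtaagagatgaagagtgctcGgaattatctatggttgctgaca
Mup20: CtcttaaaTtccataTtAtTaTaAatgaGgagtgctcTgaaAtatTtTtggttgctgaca
Mup3: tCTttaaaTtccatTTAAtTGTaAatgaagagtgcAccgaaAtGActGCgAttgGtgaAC
In this stretch Mup17 had the same bases as Mup7. Mup9 differed at 1 base, and Mup1, Mup2, Mup12 and Mup15 at the same 2. Mup20 differed at 12 bases and Mup3 at 21.

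The same gradient appeared over whole transcripts. Of Mup15's words of 31 bases, 0 were absent from other genes, and Mup12 had 7.92% of such words to itself, Mup7 9.98%, Mup17 13.8%, Mup9 14.4%, Mup2 21.3% and Mup1 29.8%. Mup20 had 35.5% of its words to itself and shared at most 12.1% with any other numbered Mup gene, while Mup3 had 69.9%. The estimated counts of the 7 central members, and of Mup15 above all, therefore rest on reads that fit other copies too, and their separate values are uncertain. For Mup2 and Mup1 the numbered Mup gene sharing most words was Mup14 (70.5% and 55.2%). For Mup17 it was Mup11 (73.6%) and for Mup9 Mup10 (62.5%). None of these genes is a member. The sum over the 9 members can therefore also gain or lose shared reads, whereas the sum over all 22 numbered genes holds those shared among them. Mup3 and Mup20 share fewer words with any 1 other numbered Mup gene. Sharing with single genes outside the numbered ones, such as Mup pseudogenes, was not measured, although words found there do not count as a gene's own.

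RefSeq promoter windows (GRCm38.p6, 250 bases before to 50 after the start) were matched for 6 of the 9 members. Over the stretches that overlap, the windows of Mup2, Mup7, Mup9, Mup15 and Mup17 were 97.0% to 98.7% identical in 10 pairs, and that of Mup3 was 72.7% to 84.1% identical to the other 5. A window of each kind is shown because these genes varied together between libraries. Capitals mark the letters TATATAA, searched on both strands and looked for after the sequences had been seen. Mup15 lies at chr4:61439655-61439954 and Mup3 at chr4:62087268-62087567, both on the minus strand.
Mup15: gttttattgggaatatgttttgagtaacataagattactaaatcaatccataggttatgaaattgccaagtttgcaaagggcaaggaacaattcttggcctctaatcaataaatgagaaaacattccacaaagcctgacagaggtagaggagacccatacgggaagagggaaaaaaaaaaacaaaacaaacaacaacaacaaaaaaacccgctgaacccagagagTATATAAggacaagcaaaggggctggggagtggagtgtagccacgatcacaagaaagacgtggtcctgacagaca
Mup3: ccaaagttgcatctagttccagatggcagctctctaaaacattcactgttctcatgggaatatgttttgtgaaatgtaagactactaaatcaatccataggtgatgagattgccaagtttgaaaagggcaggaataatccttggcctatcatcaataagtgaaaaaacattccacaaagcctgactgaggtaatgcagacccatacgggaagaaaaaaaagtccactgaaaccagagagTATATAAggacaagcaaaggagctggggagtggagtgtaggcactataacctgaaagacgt
TATATAA was found in 5 of the 6 windows, starting 25 bases before the start site in Mup15 and Mup17, 27 in Mup2, 31 in Mup9 and 11 in Mup3, against 3.24% of 32851 promoter windows on either strand. Mup7's window, which lies further upstream, did not hold it. The letters TTCNNNGAA, the core bound by STAT5, were in 0 of the 6 windows and in 8.30% of all windows, and TATAAA was in 0 of the 6 and in 13.6% of all.

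Levels are given as normalised CPM, estimated counts scaled to a library's total and to trimmed-mean (TMM) factors. Library totals ran from 3851626 to 34370178 counts. The shallowest, FAAH S268D NASH replicate 1, stood apart from the second lowest at 14743252, and it also held the highest Mup9, Mup10, Mup18, Mup8 and Mup13 levels and 306 CPM over the Mup pseudogene rows, whose median over all libraries was 23.8 CPM. Xist was at or below 0.139 CPM and the Y-linked Ddx3y at 14.9 CPM or more in all 32 libraries. Faah itself averaged 180 ± 9.5 CPM in FAAH S268D NASH-AA and 186 ± 20.3 CPM in FAAH S268D NASH, and 155 ± 7.48 CPM in WT NASH-AA and 153 ± 15.5 CPM in WT NASH (SD, n = 8 each). The substitution changes the protein, so this level does not check the genotype. Alb, the hepatocyte albumin gene, ran from 31336 to 67275 CPM.

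Per kilobase of exon, Mup20 had the highest median of the 9 over all libraries, at 3643 CPM per kb, followed by Mup3 at 2031 and Mup7 at 610. Mup2 stood at 194, Mup17 at 163 and Mup15 at 139 CPM per kb, and Mup1, Mup9 and Mup12 at 39.5, 35.3 and 22.9. The range between libraries had another order. Mup7 spanned 2762-fold, from 5.12 CPM in WT NASH replicate 7 to 14151 CPM in FAAH S268D NASH replicate 3, while Mup20 spanned 4.91-fold. WT NASH replicate 7 held the lowest value of 8 members, all but Mup20, and FAAH S268D NASH replicate 3 the highest value of 6 (Mup1, Mup2, Mup7, Mup12, Mup15 and Mup17). In FAAH S268D NASH replicate 3 the 9 genes took 3.41% of all counts, against 0.449% in FAAH S268D NASH-AA replicate 3, the lowest share.

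**Figure D1:**
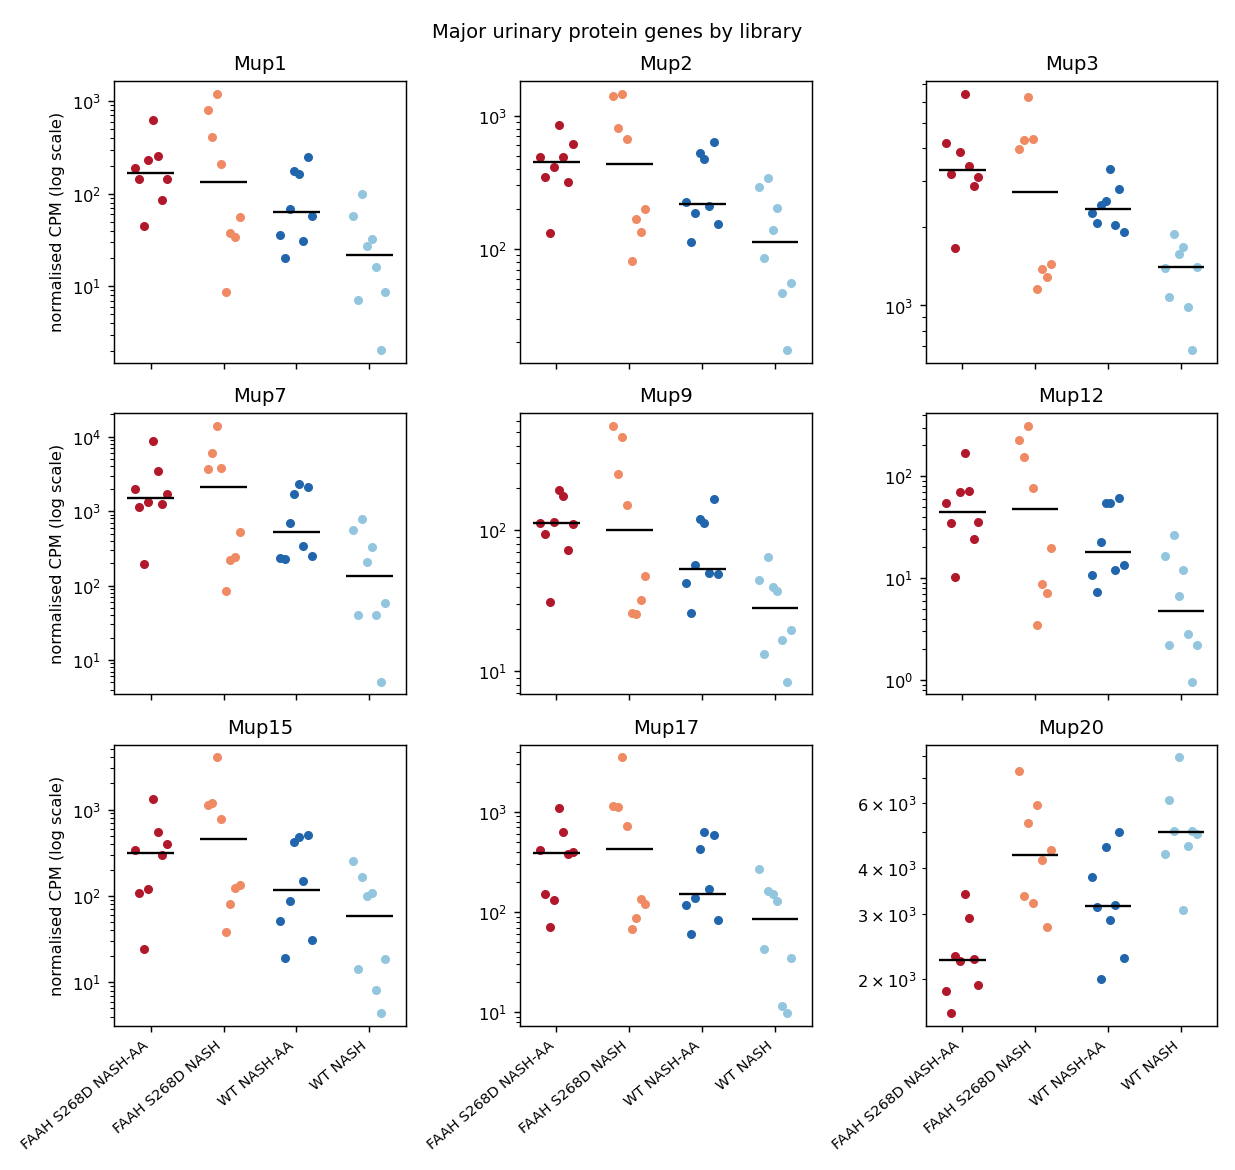
Normalised CPM of each member on a log scale (vertical axis, own range per panel) in the 4 groups of 8 libraries, with a point per library in replicate order and a bar at the median. In FAAH S268D NASH the 8 members other than Mup20 split into 4 high and 4 low libraries, and Mup20 is lowest in FAAH S268D NASH-AA.

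Mup7, the most variable of the central copies, had a lowest, median and highest level of 198, 1525 and 8774 CPM in FAAH S268D NASH-AA and of 83.7, 2103 and 14151 CPM in FAAH S268D NASH. In WT livers it had 227, 523 and 2304 CPM on NASH-AA and 5.12, 133 and 787 CPM on NASH. All 4 ranges overlapped. FAAH S268D NASH was divided within itself, since replicates 1 to 4 had 3678 to 14151 CPM and replicates 5 to 8 had 83.7 to 528 CPM. The high replicates lay above every WT NASH library and the low ones inside their range.

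Mup15 followed the same course, with a lowest, median and highest level of 24.3, 318 and 1339 CPM in FAAH S268D NASH-AA and of 38.7, 456 and 3996 CPM in FAAH S268D NASH. WT livers had 19.2, 118 and 502 CPM on NASH-AA and 4.38, 58.8 and 255 CPM on NASH. Here too the groups overlapped, and FAAH S268D NASH replicates 1 to 4 stood above all WT NASH libraries. Mup17 had medians of 388 CPM in FAAH S268D NASH-AA, 427 in FAAH S268D NASH, 153 in WT NASH-AA and 86.2 in WT NASH. Mup12, at the lowest level of the 9, had medians of 44.9, 48.1, 18.1 and 4.72 CPM in that order of groups.

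Mup1 had medians of 166 CPM in FAAH S268D NASH-AA, 133 in FAAH S268D NASH, 62.6 in WT NASH-AA and 21.8 in WT NASH. Mup2 had medians of 451, 433, 217 and 113 CPM and Mup9 of 112, 100, 53 and 28.4 CPM in the same groups. By median, WT NASH was lowest and WT NASH-AA second lowest in each of the 8 members other than Mup20. The upper pair of groups changed places between genes: FAAH S268D NASH-AA was highest for Mup1, Mup2, Mup3 and Mup9, and FAAH S268D NASH for Mup7, Mup12, Mup15 and Mup17. Neighbouring groups in this order overlapped for all 8, except the WT diet groups of Mup3.

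Mup3, the most divergent member, had a lowest, median and highest level of 1660, 3303 and 6447 CPM in FAAH S268D NASH-AA and of 1155, 2706 and 6257 CPM in FAAH S268D NASH. In WT livers the values were 1913, 2342 and 3322 CPM on NASH-AA and 677, 1398 and 1877 CPM on NASH. Its WT diet groups were the 1 pair of neighbouring groups, over all 9 members, in which no library overlapped. Mup3 also varied less than the central copies, with a 9.52-fold range over all libraries.

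Mup20 had another order. Its lowest, median and highest levels were 1619, 2252 and 3399 CPM in FAAH S268D NASH-AA and 2762, 4332 and 7314 CPM in FAAH S268D NASH. WT livers had 2011, 3156 and 5008 CPM on NASH-AA and 3086, 4992 and 7944 CPM on NASH. Both NASH-AA groups were thus lower by median than both NASH groups, and all groups overlapped with their neighbours. No FAAH S268D NASH-AA library exceeded the FAAH S268D NASH median.

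**Figure D2:**
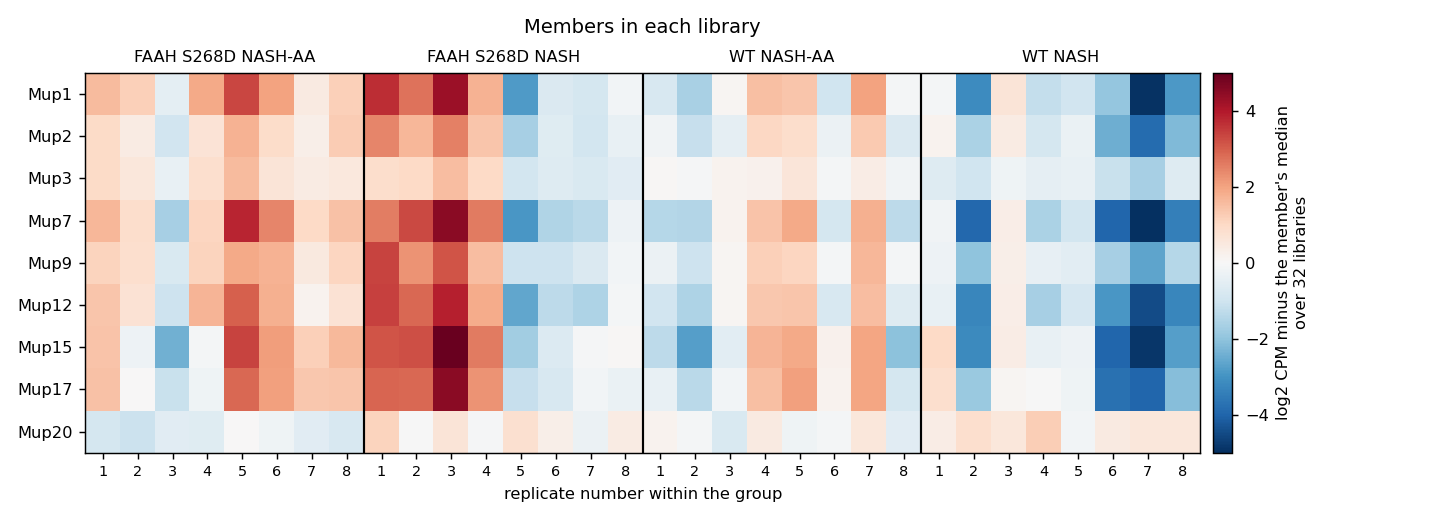
Each cell is a member's log2 CPM in 1 library minus that member's median over 32 libraries, with libraries in columns by group and replicate number. The 8 upper rows are coloured alike within a library, from deep red in FAAH S268D NASH replicate 3 to deep blue in WT NASH replicate 7, and the Mup20 row follows neither.

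The 8 members other than Mup20 varied together from library to library. Pearson's r of their log2 levels was 0.84 to 0.99 over the 28 pairs, with a median of 0.95, and 0.85 to 0.98 on deviations from the group means (32 libraries). Mup20 gave r of -0.34 to -0.07 with the 8 others, and 0.12 to 0.27 on deviations. These points share library and depth, the central copies share reads, and no test was made. Mup3 shared at most 16.9% of its words with another numbered Mup gene and was still part of the correlated set.

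**Figure D3:**
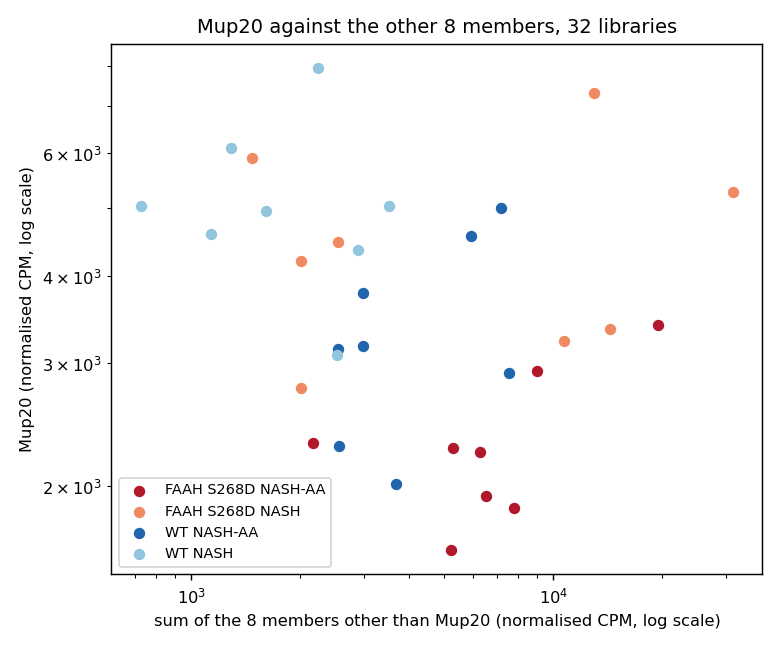
Mup20 against the summed level of the other 8 members in normalised CPM, both axes on log scales, with a point per library coloured by group. FAAH S268D NASH-AA libraries lie at or below 3399 CPM of Mup20 and WT NASH libraries at or above 3086 CPM, while FAAH S268D NASH libraries reach from 1466 to 31330 CPM along the horizontal axis.

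Summed over the 8, the median was 6399 CPM in FAAH S268D NASH-AA, 6642 in FAAH S268D NASH, 3332 in WT NASH-AA and 1923 in WT NASH. FAAH S268D NASH ran from 1466 to 31330 CPM and WT NASH from 726 to 3525 CPM, so the groups overlapped, with 4 FAAH S268D NASH libraries above all of WT NASH. Summed over all 9, the medians were 8484 CPM in FAAH S268D NASH-AA, 10666 in FAAH S268D NASH, 6461 in WT NASH-AA and 6897 in WT NASH. Over all 22 numbered Mup genes they were 17587, 19443, 11734 and 10503 CPM in that order of groups, so the WT diet groups stood the other way round by median than for the 9. The log2 ratio of group means in WT was 0.43 for the 22 genes and 0.13 for the 9, and the groups overlapped in both. Mup20 made up a median of 24.1% of the 9-member counts in FAAH S268D NASH-AA, 47% in FAAH S268D NASH, 45.3% in WT NASH-AA and 76.8% in WT NASH. Every WT NASH-AA library had a Mup20 share below the WT NASH median, and the shares overlapped between 55 and 55.9%.

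Differences between groups were fitted for all 14903 genes that passed a filter on low counts with limma-voom, and adjusted p-values are Benjamini-Hochberg over those genes with 0.05 as the threshold. All 9 members passed the filter. In FAAH S268D against WT on NASH, 7 of the 9 were past the threshold, all higher, and 1370 genes (9.19%) were past it in either direction, 2.89% of all genes higher and 6.30% lower. Since this contrast was in view when the genes were picked, nothing is read from that count. The log2 fold changes were 3.52 ± 0.97 for Mup7, 3.28 ± 0.96 for Mup15, 2.82 ± 0.84 for Mup1, 2.71 ± 0.78 for Mup17, 1.98 ± 0.57 for Mup9, 1.97 ± 0.58 for Mup2 and 0.99 ± 0.29 for Mup3 (± SE, n = 8 per group). Mup12 had 2.71 ± 0.95 and did not pass, and Mup20 had -0.16 ± 0.21. The median of the 9 was 2.71, beside 0.00 for all genes tested.

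That count rested on single libraries. Leaving out 1 library at a time gave 0 to 8 members past the threshold, with 0 without FAAH S268D NASH replicate 2, 3 or 4 or without WT NASH replicate 7, 1 without FAAH S268D NASH replicate 1 or WT NASH replicate 2, 3 without WT NASH replicate 6 and 4 without WT NASH replicate 8. The log2 fold change of Mup7 stayed between 2.91 and 4.04 over these 32 fits. With these 2 groups fitted alone, 0 members passed.

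Numbers in the library names divide the libraries into 1 to 16 and 17 to 32, and what the numbers stand for is not given. In libraries 1 to 16, Mup7 averaged 5562 CPM in 5 FAAH S268D NASH libraries and 399 CPM in 4 WT NASH libraries (log2 difference 3.39 from the fit within these libraries). In libraries 17 to 32 it averaged 332 CPM in 3 FAAH S268D NASH libraries and 109 CPM in 4 WT NASH libraries (fitted log2 difference 2.79). Fitted values compare log2 levels and do not equal the log ratio of these averages, which single high libraries raise. The direction was the same in both ranges for all 8 members other than Mup20.

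The contrast of FAAH S268D with WT on NASH-AA compares none of the NASH libraries, although its standard errors come from the fit over all 32. On it 0 of the 9 members were past the threshold by limma-voom or limma-trend. By limma-voom 98 of all genes (0.658%) were past it, 0.349% higher and 0.309% lower. An unadjusted p under 0.05 was reached by 2317 of the 14903 genes. The 1 member among them was Mup20, from which nothing is read for the reason given below. The log2 fold changes were 1.33 ± 1.06 for Mup7 (adjusted p = 0.578), 1.25 ± 0.82 for Mup1 (adjusted p = 0.483) and 0.51 ± 0.30 for Mup3 (adjusted p = 0.433). Differences of the other central copies lay between 0.61 ± 0.80 for Mup17 and 0.997 ± 0.970 for Mup15. Mup20 gave -0.51 ± 0.20, without a p because its FAAH S268D NASH-AA libraries were in view when it was picked, and was lower than the WT NASH-AA median in 7 of 8 FAAH S268D NASH-AA libraries. These misses do not show that the genotypes are alike on NASH-AA, since the standard errors of the central copies were 0.57 to 1.06. With these groups fitted alone, 0 members and 4.44% of genes passed.

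**Figure D4:**
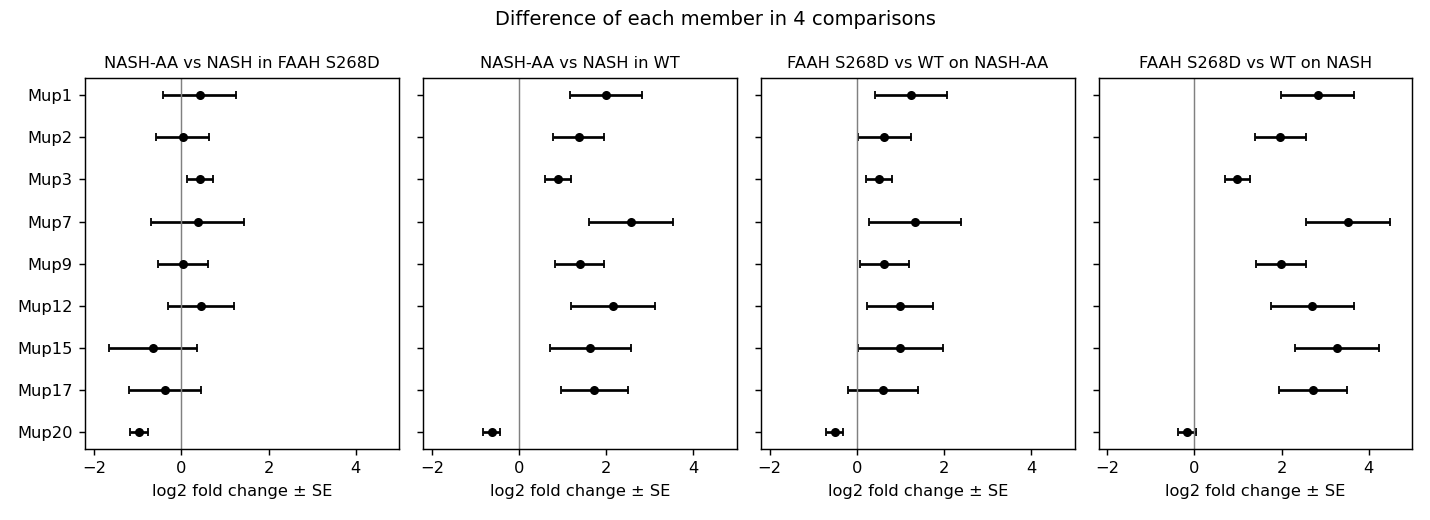
Log2 fold change of each member (points, bars ± SE from the fit over all 32 libraries) in 4 comparisons, each named as the first group against the second. The 8 members other than Mup20 lie to the right of 0 in 3 of the 4 panels, and Mup20 lies to the left in all 4.

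For NASH-AA against NASH in WT, 0 of the 9 members were past the threshold by limma-voom or limma-trend, with 8 members and 3640 of the 14903 genes at an unadjusted p under 0.05, and 657 of all genes (4.41%) were past it, 1.44% higher and 2.97% lower. This contrast shares its WT NASH libraries with the one in view when the genes were picked, so nothing is read from these counts and fold changes of the 8 are given without p. They were 2.57 ± 0.96 for Mup7, 2.16 ± 0.96 for Mup12, 1.997 ± 0.824 for Mup1, 1.72 ± 0.76 for Mup17, 1.64 ± 0.93 for Mup15, 1.39 ± 0.56 for Mup9, 1.37 ± 0.58 for Mup2 and 0.90 ± 0.30 for Mup3. Mup20, whose difference in FAAH S268D was the one in view, had -0.63 ± 0.21 (adjusted p = 0.0641), with 7 of 8 NASH-AA libraries below the NASH median. It passed without WT NASH replicate 5 (adjusted p = 0.0162), the lowest Mup20 value of its group; over all 32 such fits its adjusted p ran from 0.0162 to 0.141.

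The diet difference of the central copies in WT was not alike in the library ranges. In libraries 17 to 32, Mup7 averaged 1349 CPM in 5 WT NASH-AA libraries and 109 CPM in 4 WT NASH libraries, with a fitted log2 difference of 4.38 ± 1.01, and 5 members and 1.17% of genes were past the threshold. In libraries 1 to 16 it averaged 388 CPM in 3 WT NASH-AA libraries and 399 CPM in 4 WT NASH libraries. The fitted difference on the log2 scale was 0.42 ± 1.25, of opposite sign to the averages and smaller than its error, and Mup15, Mup17 and Mup2 had -0.99 ± 1.17, -0.38 ± 0.88 and -0.15 ± 0.75. Mup3 differed by 1.12 ± 0.26 in libraries 17 to 32 and 0.63 ± 0.42 in libraries 1 to 16.

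For NASH-AA against NASH in FAAH S268D, Mup20 was the 1 member past the threshold, and it was lower. There 14 genes (0.0939%) passed, 10 lower (0.0671%) and 4 higher (0.0268%), and Mup20's log2 fold change was -0.98 ± 0.20. As this difference was in view when Mup20 was picked, it stands as description. It lay between -1.07 and -0.84 over the 32 fits that each left out 1 library, 23 of which kept it past the threshold. The fits that lost it were those without FAAH S268D NASH replicate 1, 5, 6 or 8 or without FAAH S268D NASH-AA replicate 1, 2, 4, 7 or 8. The other 8 members ranged from -0.646 ± 1.003 for Mup15 to 0.45 ± 0.75 for Mup12, and the median of the 9 was 0.04. For 7 members the FAAH S268D NASH libraries were in view through the genotype contrast, which favours lower values here. The values of the 8 and the median are therefore description too.

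That near-zero median joined opposite values in the library ranges. In libraries 1 to 16, Mup7 averaged 1166 CPM in 4 FAAH S268D NASH-AA libraries and 5562 CPM in 5 FAAH S268D NASH libraries (fitted log2 difference -1.54 ± 1.22). In libraries 17 to 32 it averaged 3799 CPM in 4 FAAH S268D NASH-AA libraries and 332 CPM in 3 FAAH S268D NASH libraries (3.20 ± 1.28). All 8 members other than Mup20 had this change of sign. The sum of the 9 averaged 7362 CPM in FAAH S268D NASH-AA and 19172 CPM in FAAH S268D NASH in libraries 1 to 16, and 12721 and 5996 CPM in libraries 17 to 32. In WT the sum averaged 6047 CPM on NASH-AA and 8345 CPM on NASH in libraries 1 to 16, and 8812 and 5912 CPM in libraries 17 to 32. Mup20 was lower on NASH-AA in both ranges, with -1.31 ± 0.25 in libraries 1 to 16 and -0.54 ± 0.27 in libraries 17 to 32.

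The genotype by diet interaction was negative in sign for all 9 members, from -2.28 ± 1.37 for Mup15 to -0.34 ± 0.29 for Mup20. By limma-voom and limma-trend 0 members and 0 of all genes (0%) were past the threshold, and at an unadjusted p under 0.05 there were 0 members and 627 genes. Because of that choice, nothing is read from the signs and counts of members. The diet difference was not shown to differ between the genotypes for any member.

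Of the other 13 numbered Mup genes, 12 passed the filter, and in FAAH S268D against WT on NASH 3 of these (Mup11, Mup16 and Mup22) were higher past the threshold, with a list median of 1.47. Mup22, which had 0 words of its own and shared 95.1% with Mup10, had medians of 3717 CPM in FAAH S268D NASH-AA, 2786 in FAAH S268D NASH, 2371 in WT NASH-AA and 1555 in WT NASH. Mup16 differed by 1.59 ± 0.44 and Mup11 by 1.75 ± 0.51 on NASH. Mup19, also with 0 words of its own, differed by 1.43 ± 0.48. These copies share words with members (Mup17 has 73.6% in common with Mup11), so their values are no separate evidence and carry no p. Mup4 and Mup5, known from glands of the nose and mouth, reached at most 2.11 and 2.91 CPM. In the remaining contrasts 0 of the 12 tested passed, and in WT on NASH-AA against NASH their list median was 1.02. By genotype on NASH, 2.89% of all genes tested were higher past the threshold.

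Other genes that are higher in male mouse liver were taken as a list of 20, 18 of them tested. This list and those below were chosen with earlier results of these data known. Their counts and adjusted p-values by limma-voom are therefore description and no independent test. On NASH, 3 were higher in FAAH S268D than in WT past the threshold, with a list median of 0.52 beside 0.00 for all genes: Susd4, a complement regulator (1.22 ± 0.32, adjusted p = 0.0169), Nudt7, a peroxisomal hydrolase (0.75 ± 0.21, adjusted p = 0.0243), and Gna14, a G protein subunit (1.01 ± 0.30, adjusted p = 0.0319). Cyp2u1 had 0.54 ± 0.21 (adjusted p = 0.0987). On NASH-AA against NASH in WT, Susd4 alone passed (1.37 ± 0.32, adjusted p = 0.0211), with Cyp7b1 at 0.94 ± 0.30 (adjusted p = 0.058). In both other contrasts 0 passed. All genes tested had shares of 2.89% higher by genotype on NASH and 1.44% higher on NASH-AA in WT.

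Hsd3b5, a male-specific steroid dehydrogenase of mouse liver, was among the genes most like the members. It had a lowest, median and highest level of 0.212, 3.78 and 107 CPM in FAAH S268D NASH-AA, 0.111, 3.92 and 106 CPM in FAAH S268D NASH, 0.19, 1.13 and 12 CPM in WT NASH-AA and 0, 0.527 and 2.74 CPM in WT NASH. Its 2 highest libraries, FAAH S268D NASH-AA replicate 5 and FAAH S268D NASH replicate 3, were also the highest of their groups for Mup7, Mup15 and Mup17. Its lowest, WT NASH replicate 7, was the lowest for 8 members.

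Female-biased genes were a list of 20, and in WT 2 of 15 tested higher on NASH-AA than on NASH. These were the cytochromes Cyp2b9 (2.14 ± 0.46, adjusted p = 0.0175) and Cyp2b13 (2.57 ± 0.74, adjusted p = 0.0439). On NASH, Atp6v0d2, a proton pump subunit, was lower in FAAH S268D than in WT (-1.32 ± 0.37, adjusted p = 0.0223). Their list medians were 0.30 and -0.23 in these contrasts. The shares over all genes tested were 1.44% higher in the first and 6.30% lower in the second. Genes of both lists were thus among those higher on NASH-AA in WT.

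Of the growth hormone axis, 17 genes were tested. Ghr, the growth hormone receptor, averaged 537 ± 51.1 CPM in FAAH S268D NASH-AA, 446 ± 65.8 in FAAH S268D NASH, 448 ± 28.5 in WT NASH-AA and 347 ± 40.8 in WT NASH. It was higher in FAAH S268D than in WT on NASH (0.35 ± 0.08, adjusted p = 0.00747) and on NASH-AA than on NASH in WT (0.37 ± 0.08, adjusted p = 0.0175). Prlr, the prolactin receptor, was higher on NASH-AA in WT (0.91 ± 0.25, adjusted p = 0.0384). None of the other genes of the list passed in these contrasts, where 9.19% of all genes passed by genotype and 4.41% by diet. In the other diet and genotype contrasts 0 of the 17 passed, beside 0.0939% and 0.658% of all genes.

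Among genes for hormone signalling outside the growth hormone axis, Dio1, which activates thyroid hormone, was lower in FAAH S268D than in WT on NASH-AA (-0.72 ± 0.15, adjusted p = 0.0118).

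Carrier proteins of plasma, most of them lipocalins like the members, were a further list. Of 13 tested, Ttr (0.35 ± 0.10), Rbp4 (0.35 ± 0.10) and Gc (0.17 ± 0.06) were higher in FAAH S268D than in WT on NASH, with adjusted p of 0.0224, 0.0272 and 0.0435. Ttr (0.45 ± 0.10, adjusted p = 0.018) and Ambp (0.29 ± 0.08, adjusted p = 0.0373) were higher on NASH-AA than on NASH in WT. Shares of all genes tested that were higher in these contrasts were 2.89% and 1.44%. Lcn2, an acute-phase lipocalin, had its lowest value of 5.12 CPM in FAAH S268D NASH replicate 2 and its highest of 468 CPM in WT NASH replicate 7, the library lowest for 8 members.

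Markers of other liver cells moved with the same contrasts. Over all genes tested, 6.30% were lower and 2.89% higher by genotype on NASH, and 2.97% were lower on NASH-AA in WT. Of 12 macrophage markers, 10 were lower in FAAH S268D than in WT on NASH, with a list median of -1.03, and their summed level ran from 319 to 649 CPM in FAAH S268D NASH and from 455 to 1236 CPM in WT NASH. In WT, 3 of the 12 were lower on NASH-AA than on NASH, with summed levels of 500 to 677 CPM and 455 to 1236 CPM. Cd68, a macrophage lysosomal marker, was lower by genotype on NASH (-1.05 ± 0.21, adjusted p = 0.0029). Hepatocyte markers summed to 76516 to 119545 CPM in FAAH S268D NASH and 70208 to 100531 CPM in WT NASH, with 3 of 14 higher and 1 lower. Cholangiocyte markers had 4 of 9 tested lower on NASH-AA in WT and 0 of 9 past the threshold by genotype on NASH. Stellate cell markers had 2 of 10 lower, lymphocyte markers 3 of 8 lower and endothelial markers 0 of 8 past the threshold by genotype on NASH. Of 8 genes of pancreas, kidney and adipose tissue, which could be mixed into a liver piece, 2 were tested. Cfd was higher on NASH-AA than on NASH in WT (1.99 ± 0.52, adjusted p = 0.0326 by limma-voom), beside 1.44% of all genes. Cela1 passed in no contrast. The part of these cells and tissues in the Mup values was not tested. In bulk tissue fewer cells of a type cannot be told apart from less RNA per cell.

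The pattern of the members was last compared with 9499 named genes of at least 5 CPM on average, over 32 libraries, as a description without p. Closest to the summed log2 level of the 9 were Hsd3b5 (r = 0.87), Cela1 (0.84), Gstp1 (0.83), Serpine2 (0.79), Slco1a1 (0.77), Serpina3k (0.77), Nudt7 (0.76), Cyp4f13 (0.75), Cops7b (0.75) and C8b (0.74). The lowest r were those of Mthfd1l (-0.83), Cers6 (-0.83), Vldlr (-0.82), Cul7 (-0.80) and Abcd2 (-0.79). On deviations from group means these values were 0.71 to 0.88 and -0.86 to -0.81. The libraries share depth and tissue makeup, which such a correlation carries. Cela1 was also on the list of genes of pancreas, kidney and adipose tissue.

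Because Mup20 did not follow the others, the comparison was repeated for both kinds, a choice made after the values were seen. Nearest to the sum of the 8 were Cyp7b1, an oxysterol hydroxylase (r = 0.92), Nudt7 (0.91) and the carboxylesterase Ces3a (0.90), and farthest Abhd2 and Mthfd1l (-0.90 each). Mup20 was nearest to Aprt and Ajuba (0.83 each) and farthest from Prlr (-0.91), the bilirubin transferase Ugt1a1 (-0.87) and Pls3 (-0.87). With Cyp2b9, Mup20 gave r = -0.77 and the sum of the 8 gave 0.06, but on deviations from group means both were negative, at -0.53 and -0.57.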

How the data were processed

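Whole-liver polyA RNA was sequenced in 32 libraries, 8 in each of 4 groups taken from the sample labels. The submitters' processing notes name STAR 2.7.10 with build GRCm38, as well as UMI-tools 1.1.2 and Trim Galore 0.6.7. Neither the counter nor its annotation or strand setting is known from these sources, so how reads shared by near-identical copies were divided is unknown. The authors deposited estimated counts per gene, unscaled between libraries, in a table whose decimals a spreadsheet had partly turned into digit groups, clock times and day fractions. Of 1775584 cells, 87.9% were read as whole numbers and 11.4% had digit groups. Among the rest, decimals were restored from 8232 clock times and 1896 day fractions, and 3700 cells (0.208%) had 2 possible originals that differed by at most 0.81 counts. Of the 704 Mup cells, 697 were not whole numbers, so nearly all Mup values rest on this reading of the cells. In 8 Mup cells there were 2 possible originals.

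Because the values are restored estimates, a count model was not used. The restored values were rounded to whole numbers before all fits and levels. The main test was limma-voom (limma 3.58.1, R 4.3.3) on log2 CPM computed from these rounded values. It had 1 mean per group, a prior count of 0.5 and TMM factors that trimmed 30% of log ratios and 5% of means. Genes needed the CPM of 10 counts in the median library in 8 libraries and 15 counts in all, which left 14903. The fit was tested on simulated data. Adjusted p-values are Benjamini-Hochberg over these genes. Totals of 3851626 to 34370178 counts set the precision. Words of 31 bases, coding sequences and positions came from GENCODE transcripts on GRCm38.

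All 9 members are named. From each list the text names up to 4 genes with the smallest unadjusted p, and by likeness the 10 genes with the highest and 5 with the lowest correlation. The members and lists were chosen with earlier results of these data known. Lists were male-biased, female-biased, growth hormone axis, hormone receptor and plasma carrier genes, and markers of hepatocytes, macrophages, cholangiocytes, stellate cells, endothelium and lymphocytes. Further lists were the other numbered Mup genes, X inactivation and Y-linked genes, and genes of pancreas, kidney and adipose tissue. The alternatives tried were other size factors, filters, weights, tests, sample sets, blocks and readings of ambiguous cells, and leaving out each library.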

Additional observations from a re-analysis of the deposited data

Results flagged for a closer look

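Single libraries stood far above the rest of their group in 8 of 40 combinations of a member, or the members' sum, with a group of 8 libraries. The measure was the gap to the next library over the group's range, on CPM without logs, compared with Dixon's 95% critical value. That value assumes normally distributed levels, for which it flags about 1 in 20. Levels here were skewed upward, as for Mup7 in FAAH S268D NASH with a median of 2103 and a mean of 3600 CPM. The number of flags is therefore not read against that rate.

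In FAAH S268D NASH-AA the high library was replicate 5 each time. It had 629 CPM of Mup1 against 255 CPM in the next library (gap ratio 0.641) and 8774 against 3442 CPM of Mup7 (0.622). Mup12 had 168 against 71.8 CPM (0.610), and Mup15 had 1339 against 547 CPM (0.603). The sum of the 9 members was 22907 against 11947 CPM (0.595). These flags fell on 1 library, and the genes share reads.

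In FAAH S268D NASH the high library was replicate 3. It had 14151 CPM of Mup7 against 6091 CPM in the next library (0.573), 3996 against 1188 CPM of Mup15 (0.709) and 3494 against 1144 CPM of Mup17 (0.686). Mup20 and Mup3 were flagged in no group. The same 2 libraries held the highest Hsd3b5 levels, with 107 CPM in FAAH S268D NASH-AA replicate 5 and 106 CPM in FAAH S268D NASH replicate 3.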

How the results depend on the processing

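The number of members past the threshold depended on the processing in 3 contrasts, for which the values given first are 1 for diet in FAAH S268D, 0 for diet in WT and 7 for genotype on NASH. With no filter on low counts, diet in FAAH S268D gave 0 (0.0189% of all genes passed) and genotype on NASH gave 0 (3.57%). Sample quality weights gave 2 for diet in FAAH S268D (7.11% of all genes), 9 for diet in WT (8 higher, 1 lower; 25.2%) and 0 for genotype on NASH (13.2%). Fitting only the groups of the contrast gave 0, 1 and 0, with 0.0213%, 7.58% and 0.472% of all genes. Libraries 1 to 16 alone gave 0, 0 and 2 (0%, 0% and 6.36% of all genes), and libraries 17 to 32 alone gave 2, 5 and 0 (2.63%, 1.17% and 0.105%). Without FAAH S268D NASH replicates 1 and 3 together, an alternative chosen after seeing the data, diet in WT gave 2 (6.67%) and genotype on NASH gave 0 (5.06%). The cause of these changes was not tested, beyond the smaller number of libraries in the subsets.

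Leaving out 1 library at a time gave 0 to 1 members for diet in FAAH S268D, 0 to 2 for diet in WT and 0 to 8 for genotype on NASH. For diet in WT the count was 1 without FAAH S268D NASH replicate 3 or 5 and 2 without WT NASH replicate 5. Genotype on NASH-AA and the interaction gave 0 in each of these 32 fits.

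Replicate numbers did not pair the samples: 13 of 48 same-numbered pairs correlated above 0.1 (range -0.38 to 0.33), and 10 correlated best with their own number. With a replicate block the count was 0 for diet in FAAH S268D (0.0537% of all genes) and 6 for genotype on NASH (6.45%).

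No fold change of a member past the threshold in the main fit turned its sign under any alternative run. None past it in an alternative had the opposite sign to the main fit. Signs did turn between alternatives. For diet in WT, Mup15, Mup17 and Mup2 were higher past the threshold with sample quality weights. In libraries 1 to 16 alone they had -0.99, -0.38 and -0.15, short of it. For diet in FAAH S268D, the members other than Mup20 changed sign between the library ranges, as given above. The summed level of the 9 turned its direction between libraries 1 to 16 and 17 to 32 for diet in both genotypes, as given above. For diet in FAAH S268D its log2 ratio was -0.50 with all libraries and 0.08 without FAAH S268D NASH replicates 1 and 3. Under the other alternatives run on it, the ratio moved by less than 1 SD between libraries. With all Mup rows added into 1 row, no member count exists. Depth limits FAAH S268D NASH replicate 1 most.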
